A study of Homo sapiens with 12 samples.

Results

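The genes described here are the expressed members of the LINC series, the long intergenic noncoding RNAs whose symbol starts with LINC, in A549 cells. A gene was taken when its reads on its own strand summed to at least 120 over the 12 libraries. Of 884 LINC symbols among the 26334 genes of the count files, 161 met this limit, and 369 had no read in any library. The members were thus chosen by their read counts in these same libraries, so their presence in the cells is not a result. LINC00240, LINC00896 and LINC01590 lay just inside the limit with 133, 131 and 124 reads, and LINC01372, LINC00933 and LINC01158 just outside it with 116, 113 and 108.

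A549 is an established human lung adenocarcinoma line. A lentivirus brought in either a control hairpin (shControl) or a hairpin that targets RNF113A (shRNF113A), and all groups were selected with puromycin at 1 µg/ml for 4 days. RNF113A is a spliceosome component and a ubiquitin ligase. Cells of both kinds were left untreated or received Cisplatin, a drug that crosslinks DNA, at 25 µg/ml for 20 h as the labels give it, which made 4 conditions of 3 libraries each. The labels do not name the shRNA construct, and they do not say whether replicates came from separate infections or cultures, so p-values measure the spread between these libraries only. In such bulk RNA fewer cells of a type and less RNA per cell cannot be told apart.

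Long intergenic noncoding RNAs are transcribed from their own loci, usually by RNA polymerase II, and most are spliced and polyadenylated like messengers. They work in different ways. Some bind proteins, some act on the gene next to them while they are being transcribed, some host small or circular RNAs, and several that were first listed as noncoding turned out to encode small proteins. Several of them are induced by p53, the transcription factor that DNA damage activates.

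Each library held 33859097 to 56071514 read pairs. RNF113A itself measured 20.3, 19.5 and 19.8 CPM (counts scaled to the library's size) in untreated shControl cells and 15.3, 15.8 and 16.8 CPM in untreated shRNF113A cells, without overlap. With Cisplatin it measured 31.5, 28.9 and 27.7 CPM in shControl and 25.8, 24.3 and 29.9 CPM in shRNF113A cells, which overlapped. Its depletion term was −0.23 ± 0.07 (log2, SE, edgeR adjusted p = 0.0185), so the targeted transcript was lower by much less than 2-fold. By the same test the effect was −0.31 ± 0.09 in untreated cells (adjusted p = 0.0247). In Cisplatin-treated cells it was −0.14 ± 0.09 (adjusted p = 0.233), which did not pass. Replicate 2 of shControl stood apart in both treatments, with a correlation to the other replicates of 0.968 to 0.976 across 10948 genes, against 0.992 to 0.998 among all other replicates of a condition. Counts are therefore also given without that pair of libraries where they differ. Of the markers of other cells, PTPRC, CD3E, PECAM1, VWF, DCN and PDGFRB stayed under 1 CPM in every library, and CD14 reached 4.36 CPM. COL1A1 was highest in the replicate 2 libraries of shControl, at 34.9 CPM in the untreated and 14.05 CPM in the treated one, and stayed between 3.32 and 7.13 CPM elsewhere. The epithelial keratins KRT8 and KRT18 were at 1936 to 7450 and 1402 to 6441 CPM. KRT19, an epithelial keratin too, was low at 0.674 to 5.32 CPM, and the epithelial marker CDH1 measured 32.1 to 197 CPM. EPCAM, a further epithelial marker, measured 3.66 to 18.4 CPM in the 6 shControl and 40.5 to 97.6 CPM in the 6 shRNF113A libraries, so it separated them without overlap. Read pairs that fell on no gene made up 9.05 to 9.62% of Cisplatin-treated shRNF113A libraries and 4.55 to 6.78% of the others. The part of these differences in the results was not tested.

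The sequences below belong to the results that follow. The first pair are promoters, shown because these genes rose with Cisplatin and carry the p53 half-site consensus, which is printed in capitals. They come from RefSeq (GRCh38.p14), run from 250 bases before to 50 bases after the gene's start, and lie at chr5:27472042-27472341 on the plus strand for LINC01021 and at chr10:4678021-4678320 on the minus strand for LINC00704.
LINC01021 promoter: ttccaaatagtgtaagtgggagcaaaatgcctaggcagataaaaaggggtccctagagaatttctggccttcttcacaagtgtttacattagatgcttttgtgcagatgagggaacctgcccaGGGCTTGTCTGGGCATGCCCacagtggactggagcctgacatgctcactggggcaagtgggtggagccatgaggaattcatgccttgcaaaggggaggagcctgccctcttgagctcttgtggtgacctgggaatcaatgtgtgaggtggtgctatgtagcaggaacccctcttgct
LINC00704 promoter: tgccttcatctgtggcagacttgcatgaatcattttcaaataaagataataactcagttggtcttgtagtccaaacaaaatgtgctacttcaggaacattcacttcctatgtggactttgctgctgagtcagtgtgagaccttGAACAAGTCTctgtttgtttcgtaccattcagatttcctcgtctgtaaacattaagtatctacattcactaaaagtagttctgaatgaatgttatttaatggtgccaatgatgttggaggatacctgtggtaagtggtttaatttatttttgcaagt
In the LINC01021 promoter 2 half-sites follow each other without a spacer, which starts 127 bases before the gene's start. The half-site consensus reads the same on both strands. It was found in 9 of the 127 members with a promoter in the table and in 6.63% of all 35116 promoters of that table. Of the 10 matched members that Cisplatin raised, 3 carried it, namely LINC01021, LINC00704 and LINC01176, the last of which is not shown. Of the 22 that it lowered, 1 did, LINC01006. A match is a description of letters and shows no binding.

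The next stretch is from LINC00657, shown because this transcript had the most reads of all members and is known to bind Pumilio proteins. It is 200 bases of the gene's single exon (GRCh37, chr20:34636228-34636427, minus strand) with the Pumilio response elements, TGTANATA with N for any base, in capitals.
LINC00657 stretch: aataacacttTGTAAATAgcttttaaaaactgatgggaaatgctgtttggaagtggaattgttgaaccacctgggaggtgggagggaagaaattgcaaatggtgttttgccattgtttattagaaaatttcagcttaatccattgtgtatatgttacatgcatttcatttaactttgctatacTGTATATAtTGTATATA
The whole LINC00657 transcript of 5343 bases held 15 such elements on its own strand, or 2.81 per kb. No other member's longest transcript held more than 2, and 25 of the 161 held at least 1.

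The 161 members together held 0.123 to 0.156% of the reads on genes. Their levels were low, with a median of 1.77 CPM over the members' means, and 60 of them had a mean under 1 CPM. LINC00657, also named NORAD, alone held 30.2% of all member reads, and the 10 highest members held 56.9%. NORAD is a cytoplasmic RNA that takes up Pumilio proteins, repressors of mRNA, and is needed for stable chromosome numbers. It measured 355, 293 and 319 CPM in untreated and 554, 408 and 537 CPM in Cisplatin-treated shControl cells. In shRNF113A cells it measured 380, 380 and 349 CPM without and 454, 497 and 450 CPM with Cisplatin. Cisplatin-treated libraries were higher in both backgrounds without overlap, by 0.49 ± 0.09 on the log2 scale (SE, adjusted p = 0.000249), which is below the 2-fold limit.

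**Figure D1:**
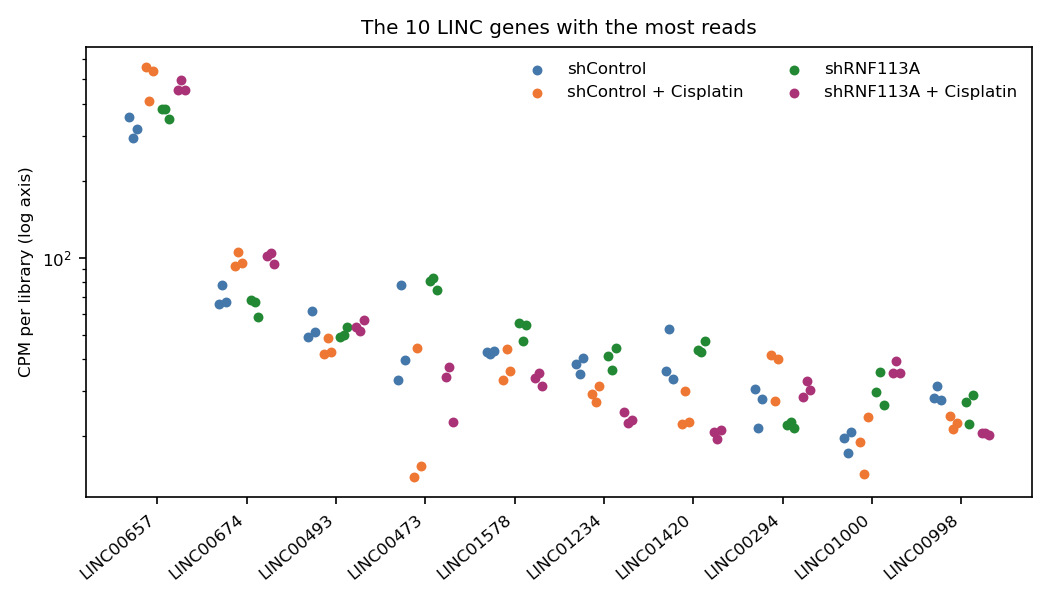
CPM of the 10 members with the most reads (x axis) in each of the 12 libraries (points, coloured by condition) on a log axis. LINC00657 lay above all others in every library, between 293 and 554 CPM.

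Per length of exon the order was another. LINC00493 came first with a mean of 103 CPM per kb over all libraries, followed by LINC00657 with 77.6, LINC01420 with 47.1, LINC00998 with 21.8, LINC01578 with 20.4 and LINC00152 with 19.8 CPM per kb. In untreated shControl cells LINC00493 was at 109 ± 14.1 CPM per kb (SD, n = 3), while LINC00657 at 60.3 ± 5.79 and LINC01420 at 58.6 ± 14.7 did not differ beyond their spread. With Cisplatin LINC00657 at 93.5 ± 14.9 and LINC00493 at 90.4 ± 7.17 CPM per kb were within their spread in shControl cells. Thus 3 of the 4 densest members, LINC00493, LINC01420 and LINC00998, are genes now known to encode small proteins (SMIM26, NBDY and SMIM30).

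Calls are given at a Benjamini-Hochberg adjusted p under 0.05 in edgeR's quasi-likelihood test over all 15352 tested genes, together with a change of at least 2-fold. All 161 members entered the test. Of them 118 were over the filter's level in all 12 libraries, and 6 in all libraries of only 1 condition. The model with both terms gives the effect of Cisplatin over both backgrounds and that of depletion over both treatments. Cisplatin changed 40 members, 15 higher and 25 lower. Over all tested genes 21.5% were called, 10.3% higher and 11.2% lower, against 9.32% and 15.5% of the members. The median log2 change of members was −0.07 and that of all genes 0.03. With library sizes in place of TMM scaling both medians moved up, to 0.03 for the members and 0.13 for all genes, and without the replicate 2 pair the medians were 0.03 and 0.04, so the difference between them went from −0.10 to −0.02. RNF113A depletion changed 23 members, 15 higher and 8 lower, against 11.0% of all genes called, 5.47% higher and 5.52% lower. Shares called depended on level. For depletion 4 of 25 members under 0.5 CPM and 7 of 35 from 0.5 to 1 CPM were called. From 1 to 5 CPM 9 of 59 were. Of all tested genes there 33.4%, 29.3% and 23.4% were. For Cisplatin 8, 12 and 13 of these members were, against 45.5%, 37.9% and 34.9%. From 5 to 20 CPM 2 of 27 were called for depletion and 5 for Cisplatin, against 9.02% and 25.2%. Above 20 CPM 1 and 2 of 15 were, against 2.55% and 10.7%. The members' median for depletion was 0.13 and that of all genes −0.00. Of the 161, 8 were called for both terms and 106 for neither.

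**Figure D2:**
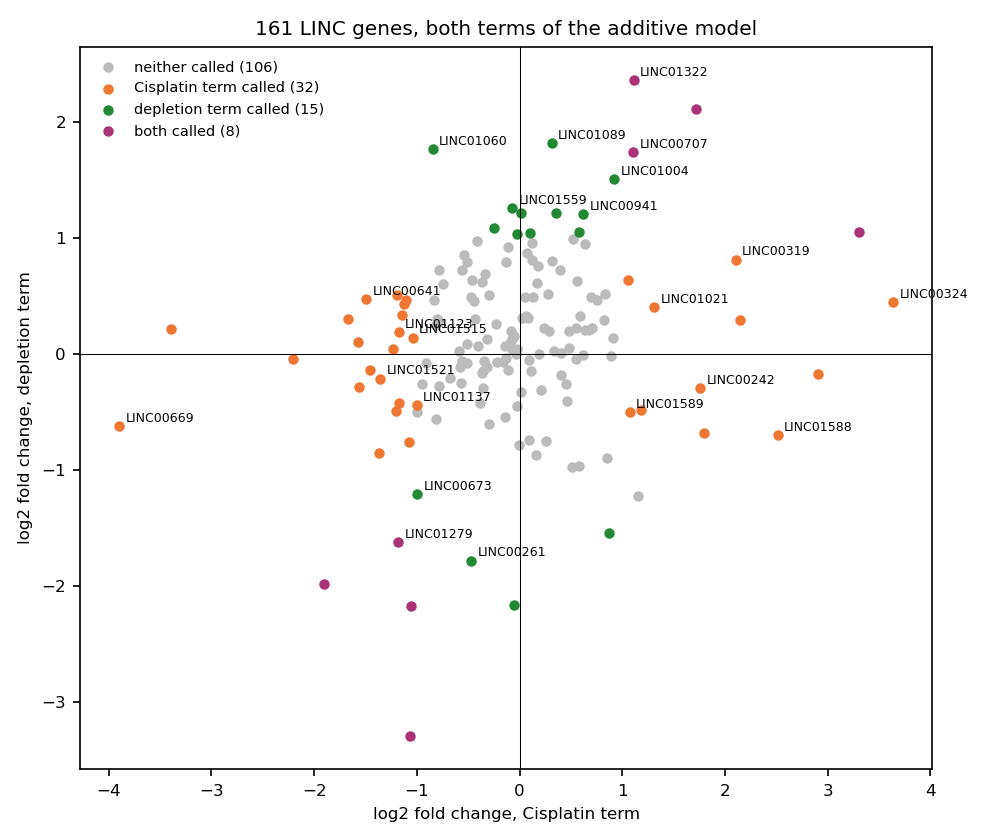
Log2 fold change of the depletion term (y axis) against that of the Cisplatin term (x axis) for the 161 LINC genes (points), coloured by which term was called. LINC00324 and LINC00669 lie at the far ends of the Cisplatin axis and LINC01322 at the top of the depletion axis.

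The largest rise with Cisplatin was that of LINC00324, a spliced RNA on chromosome 17. Its values were 0.525, 0.586 and 0.451 CPM in untreated and 7.52, 3.68 and 4.70 CPM in Cisplatin-treated shControl cells. In shRNF113A cells they were 0.476, 0.656 and 0.492 CPM without and 7.66, 7.17 and 10.3 CPM with Cisplatin. All 6 treated libraries were therefore above all 6 untreated ones, with a log2 change of 3.64 ± 0.22 (SE, adjusted p = 8.52e-09), or 12.5-fold. CTC1, a telomere maintenance gene 778 bases upstream on the same strand, had a log2 change of 0.58 ± 0.08 (adjusted p = 2.63e-05), below 2-fold.

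LINC01588 was the most abundant of the strongly raised members. It went from 5.67, 7.72 and 5.33 CPM to 27.6, 38.4 and 27.7 CPM in shControl cells, and from 3.04, 2.68 and 4.21 CPM to 21.0, 21.5 and 23.1 CPM in shRNF113A cells. The groups did not overlap at either level of RNF113A, and the change was 2.52 ± 0.15 (log2, adjusted p = 6.45e-09). LINC00319 rose by 2.10 ± 0.12 (adjusted p = 3.80e-09), from 1.13 to 1.22 CPM up to 4.98 to 5.58 CPM in shControl cells and from 1.96 to 2.44 CPM up to 7.64 to 10.5 CPM in shRNF113A cells. LINC00242 (1.76 ± 0.24), LINC01322 (1.11 ± 0.19) and LINC01589 (1.07 ± 0.14) were the other members that qualified, and with LINC01021 they made up all 7 that rose without overlap at a mean of at least 1 CPM.

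LINC01021 is PURPL, an RNA that p53 induces and that keeps p53 low. Its values were 7.32, 5.38 and 8.64 CPM in untreated and 14.7, 9.74 and 18.7 CPM in Cisplatin-treated shControl cells. In shRNF113A cells they were 7.70, 7.32 and 7.93 CPM without and 22.3, 21.5 and 25.8 CPM with Cisplatin. Treated libraries were higher in both backgrounds without overlap, and the 3 treated shRNF113A libraries were above the 3 treated shControl libraries. The Cisplatin term was 1.31 ± 0.17 (log2, adjusted p = 1.27e-05). The depletion effect within Cisplatin-treated cells was 0.69 ± 0.21 (adjusted p = 0.0199), under 2-fold, and the interaction was 0.58 ± 0.30 (adjusted p = 0.295). Of the 3 members on a list of p53-linked RNAs, LINC01021 alone was called for Cisplatin, LINC00657 passed on adjusted p only, and LINC-PINT did neither. LINC-PINT is a p53-induced RNA that works with Polycomb. It measured 5.78, 4.41 and 5.38 CPM in untreated and 3.03, 2.89 and 3.53 CPM in treated shControl cells, but 5.72, 5.01 and 5.90 CPM and then 6.30, 6.34 and 5.39 CPM in shRNF113A cells. Treated shControl libraries were thus the lowest of all 12. Its interaction was 0.84 ± 0.21 (log2, adjusted p = 0.0454), under the 2-fold limit.

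LINC00704 (MANCR) and LINC01136, which were chosen after their values were seen, lay under 1 CPM on average. LINC00704 measured 0.193, 0.0764 and 0.239 CPM in untreated and 1.16, 0.241 and 1.36 CPM in treated shControl cells, and 0.106, 0.0263 and 0.123 CPM against 0.743, 0.958 and 1.35 CPM in shRNF113A cells, with a Cisplatin term of 2.91 ± 0.47 (adjusted p = 9.17e-05). In shControl cells the lowest treated library barely exceeded the highest untreated one. No untreated library reached the filter's level of 0.258 CPM. LINC00704 thus entered the test through treated libraries, where it was high, so its adjusted p adds no support for the rise. LINC01136 starts 211 bases from BTG2, a p53 target that restrains proliferation, on the opposite strand. LINC01136 had a Cisplatin term of 2.15 ± 0.34 (log2, adjusted p = 8.08e-05) on 155 reads over the 12 libraries. With so few reads its entry into the test depended on treated libraries, where it was high. Its adjusted p thus adds no support for the rise either. BTG2 itself rose by 4.07 ± 0.15 (adjusted p = 1.14e-10), from 9.17 to 18.05 CPM without to 204 to 279 CPM with Cisplatin.

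The largest fall with Cisplatin was that of LINC00669, the host transcript of miR-924, which spans 545072 bases of chromosome 18 and is the longest member. It measured 5.20, 4.64 and 4.93 CPM in untreated and 0.316, 0.409 and 0.468 CPM in treated shControl cells. The shRNF113A values were 4.00, 3.23 and 3.87 CPM without and 0.162, 0.185 and 0.187 CPM with Cisplatin. The ranges were far apart in both backgrounds, with a log2 change of −3.90 ± 0.18 (adjusted p = 6.35e-10), or 14.9-fold lower. LINC00641 fell by 1.49 ± 0.18 on the log2 scale (adjusted p = 6.03e-06), from 11.4 to 21.3 CPM down to 3.82 to 7.79 CPM in shControl and from 19.6 to 24.4 CPM down to 7.75 to 9.46 CPM in shRNF113A cells. LINC01521 fell by 1.36 ± 0.10 (adjusted p = 6.13e-08), and its values in the 6 treated libraries lay between 3.82 and 5.39 CPM. LINC01279, LINC01123, LINC01515 and LINC01137 also fell, by 1.18, 1.18, 1.04 and 1.002 on the log2 scale, so that 7 members fell without overlap at 1 CPM or more. The current symbol of LINC01279 is CCDC80, and the separate CCDC80 entry had a Cisplatin term of −0.34 ± 0.26 (adjusted p = 0.264), which did not pass. LINC01137 sat at the 2-fold limit, and 6 of the 12 fits that left out 1 library did not call it.

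**Figure D3:**
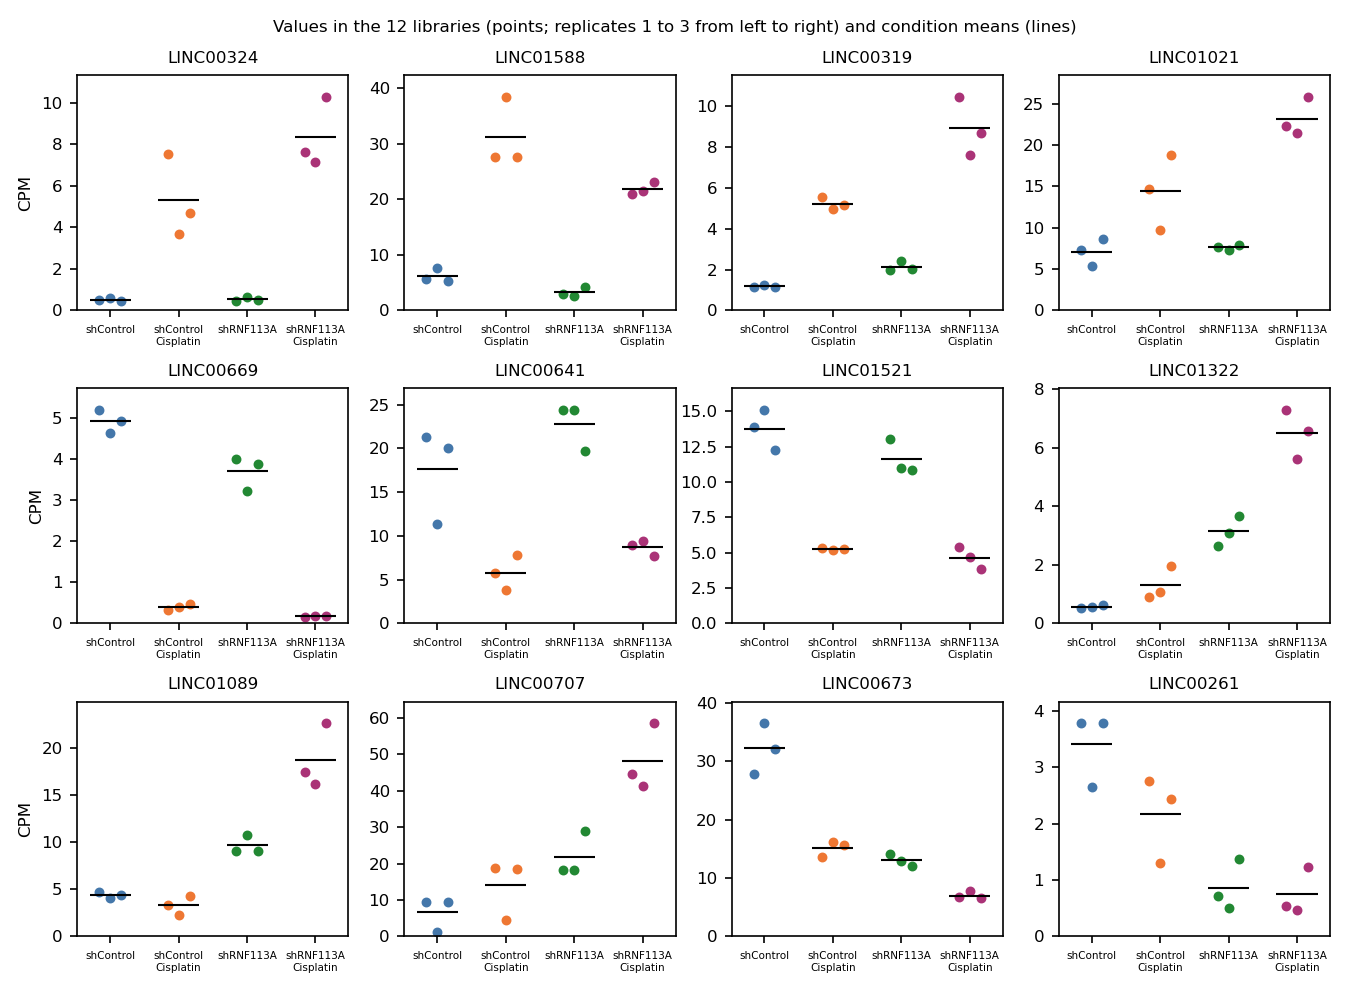
CPM (y axis, from 0) of 12 members in the 12 libraries, with points for libraries, lines for condition means and 1 panel per gene. LINC00324, LINC01588, LINC00319 and LINC01021 are higher and LINC00669, LINC00641 and LINC01521 lower with Cisplatin, while LINC01322, LINC01089 and LINC00707 have their highest values in Cisplatin-treated shRNF113A cells.

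Members were also described by the length of their locus. Of the 12 that span at least 100 kb, Cisplatin lowered 5 and raised 1, with a median log2 change of −0.92. The 2507 other tested genes of that length had a median of −0.77, and 41.8% of them were called lower. Shorter members had medians near 0, with 6 called higher and 5 lower of the 44 from 20 to 100 kb (median −0.06), 5 and 7 of the 56 from 5 to 20 kb (median −0.01), and 3 and 7 of the 47 under 5 kb (median −0.03). The 2101 other genes under 5 kb had a median of 0.22, with 16.6% called higher and 3.86% lower. For the 4407 other genes from 5 to 20 kb the median was 0.23, with 14.9% called higher and 3.199% lower. For the 6159 other genes from 20 to 100 kb it was 0.02, with 8.07% called higher and 6.95% lower. The rank correlation of span with the Cisplatin term was −0.16 over 159 members at 1 locus and −0.40 over 15174 other genes, a description across genes that share libraries.

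LINC00473 was the fourth most abundant member. It is an RNA induced through cyclic AMP signalling in lung cancer cells that lack the kinase LKB1. It was called lower with Cisplatin (−1.19 ± 0.28, adjusted p = 0.00214), but its values were 33.3, 78.3 and 39.8 CPM in untreated and 13.9, 44.4 and 15.2 CPM in treated shControl cells, so that replicate 2 was the highest of both groups and the groups overlapped. Between libraries of the same number it was lower with Cisplatin in all 3, though the numbers do not tell replicates 1 and 3 apart. Replicates 1 and 3 alone did not overlap between treatments. The shRNF113A libraries did not overlap, at 81.0, 83.4 and 74.4 CPM without and 34.1, 37.4 and 22.8 CPM with Cisplatin.

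Members on a list of LINC genes that encode small proteins were not called for either term. The list names 9 genes, of which 5 are members, and 3 of them passed on adjusted p alone, all lower with Cisplatin, with a median log2 change of −0.31. Of all genes 21.5% and 11.0% were called, as given above. LINC01420 encodes NBDY, a microprotein of the mRNA decapping complex. It fell from 36.1, 52.4 and 33.6 CPM to 22.4, 30.1 and 22.7 CPM in shControl cells and from 43.6, 42.8 and 47.2 CPM to 20.7, 19.6 and 21.3 CPM in shRNF113A cells, by 0.91 ± 0.12 on the log2 scale (adjusted p = 2.09e-05). The groups did not overlap, and within shRNF113A cells the fall passed the limit, at 1.12 ± 0.16 (adjusted p = 7.12e-05). LINC00998 (−0.36 ± 0.07, adjusted p = 0.000567) and LINC00467 (−0.31 ± 0.10, adjusted p = 0.0108) were lower by less. LINC00493 (−0.10 ± 0.08, adjusted p = 0.329) and LINC00116, which encodes the mitochondrial peptide mitoregulin (−0.11 ± 0.09, adjusted p = 0.321), did not pass. LINC00632, the precursor of the circular RNA CDR1as and the only expressed member of a list of host transcripts, had −0.59 ± 0.18 (adjusted p = 0.00842).

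Depletion of RNF113A went along with the largest rise for LINC01322, which spans 306769 bases of chromosome 3. It measured 0.525, 0.560 and 0.636 CPM in untreated shControl and 2.65, 3.10 and 3.69 CPM in untreated shRNF113A cells. With Cisplatin it measured 0.894, 1.08 and 1.96 CPM in shControl and 7.30, 5.63 and 6.59 CPM in shRNF113A cells. It was higher in shRNF113A cells in both treatments without overlap, by 2.36 ± 0.19 (log2, adjusted p = 1.12e-06), and it was also called higher with Cisplatin. LINC01060 rose by 1.77 ± 0.19 (adjusted p = 1.20e-05) upon depletion while its Cisplatin term was −0.85 ± 0.19.

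LINC00707 and LINC01559 also rose upon depletion, but their shControl values split by replicate. LINC00707 measured 9.53, 1.22 and 9.33 CPM in untreated and 18.9, 4.62 and 18.5 CPM in treated shControl cells, and replicate 2 was the lowest in both. In shRNF113A cells it measured 18.2, 18.2 and 29.0 CPM, and 44.5, 41.3 and 58.6 CPM with Cisplatin. Its depletion term was 1.74 ± 0.40 (adjusted p = 0.00325), and 1.29 ± 0.14 (adjusted p = 7.77e-06) without the replicate 2 pair. LINC01559 had 1.26 ± 0.35 (adjusted p = 0.0104), and 0.84 ± 0.17 without that pair, which is below 2-fold. LINC00941 (1.20 ± 0.17, adjusted p = 0.000119) and LINC01004 (1.51 ± 0.36, adjusted p = 0.00405) completed the 7 members that rose without overlap. LINC01004 measured 1.29 to 1.92 CPM in untreated and 4.51 to 5.99 CPM in treated shRNF113A cells, against 0.433 to 1.62 CPM in the 6 shControl libraries.

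Of members of at least 1 CPM, LINC00673 and LINC00261 fell upon depletion without overlap. LINC00673 lies beside LINC00511 on chromosome 17. It measured 27.8, 36.6 and 32.2 CPM in untreated and 13.5, 16.1 and 15.7 CPM in treated shControl cells. In shRNF113A cells it measured 14.1, 13.0 and 12.1 CPM without and 6.75, 7.73 and 6.55 CPM with Cisplatin. Depleted libraries were lower in both treatments without overlap, by −1.21 ± 0.09 (log2, adjusted p = 6.38e-07), and its Cisplatin term was −0.996 ± 0.09 (adjusted p = 4.31e-07), just under 2-fold. LINC00511, whose RefSeq transcript ends 5237 bases upstream of LINC00673 on the same strand, measured 1.01 to 1.66 CPM in the 6 shControl and 0.150 to 0.430 CPM in the 6 shRNF113A libraries, with a depletion term of −2.16 ± 0.24 (adjusted p = 1.79e-05). Its Cisplatin term was −0.05 ± 0.23 (adjusted p = 0.863), so that both were called lower for depletion. With Cisplatin LINC00673 was called lower within shControl cells (−1.09 ± 0.12, adjusted p = 8.91e-06), and LINC00511 was not called there (0.21 ± 0.27, adjusted p = 0.521). The reference annotation joins both into 1 gene, LINC00511.

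LINC00261 lies 2362 bases downstream of FOXA2, a transcription factor of endoderm and lung epithelium, on the same strand. It measured 3.79, 2.65 and 3.79 CPM in untreated and 2.76, 1.30 and 2.45 CPM in treated shControl cells, against 0.715, 0.499 and 1.38 CPM and 0.549, 0.464 and 1.23 CPM in shRNF113A cells. The depleted libraries were lower in both treatments, by −1.78 ± 0.30 (log2, adjusted p = 0.000410). FOXA2 had a depletion term of −1.07 ± 0.18 (adjusted p = 0.000309), from 23.1 to 39.0 CPM in shControl down to 9.98 to 22.7 CPM in shRNF113A cells. In 20 pairs of a member with a same-strand gene within 10 kb upstream, 10 had the same sign upon depletion, and 3 were called for both symbols, each time in the same direction. These were LINC00261 with FOXA2, LINC00673 with LINC00511, and LINC01279 with CCDC80. The second pair is 1 gene in the reference annotation and CCDC80 is the current symbol of LINC01279, so that only the pair of LINC00261 and FOXA2 are separate genes by current names. In the 19 pairs that start head to head within 2 kb, 13 had the same sign for depletion and 10 for Cisplatin, and 1 pair, LINC01136 with BTG2, was called for both genes with Cisplatin. The call of LINC01136 adds no support there, as given above. PATZ1, the head-to-head neighbour of LINC01521, had a Cisplatin term of 0.20 ± 0.05. ZC3H12A, that of LINC01137, had an effect of −0.36 ± 0.10 in shControl (adjusted p = 0.0116) and of 0.36 ± 0.10 in shRNF113A cells (adjusted p = 0.00960).

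A list of 20 LINC RNAs studied in carcinomas had 16 expressed members. Upon depletion 3 were called higher (LINC00707, LINC00941 and LINC00115) and 3 lower (LINC00511, LINC00261 and LINC00673), with a median log2 change of −0.07, against the 11.0% of genes called overall. With Cisplatin LINC00707 was called higher, and LINC00312 (−1.37 ± 0.29) and LINC00173 (−1.20 ± 0.24) lower, with a median of −0.04. LINC00662 passed on adjusted p at 0.71 ± 0.09, and measured 11.3 to 12.6 CPM in the 6 untreated and 15.5 to 25.4 CPM in the 6 treated libraries. LINC01234 (−0.58 ± 0.09) and LINC00152 (−0.36 ± 0.11) passed on adjusted p in the other direction. LINC00857, LINC00339, LINC00472, LINC01116 and LINC01133 had Cisplatin terms between −0.13 and 0.12, none past the adjusted p.

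Effects within single conditions came from a model that also holds the interaction. In shControl cells Cisplatin changed 43 members, 12 higher and 31 lower, where 19.8% of all genes were called, 9.16% higher and 10.6% lower. In shRNF113A cells it changed 41 members, 25 higher and 16 lower, where 23.1% of all genes were called, 11.6% higher and 11.5% lower. Of these, 21 were called in both backgrounds, all in the same direction, which was 48.8% of the first set and 51.2% of the second. The members' median was −0.24 in shControl and 0.10 in shRNF113A cells, and that of all genes −0.01 and 0.06. Without the replicate 2 pair the shControl medians were −0.14 for the members and 0.01 for all genes. Depletion changed 17 members in untreated cells, 6 higher and 11 lower, against 8.66% of all genes, 3.70% higher and 4.96% lower. It changed 38 in Cisplatin-treated cells, 25 higher and 13 lower, against 12.3% of all genes, 6.90% higher and 5.42% lower. Of these, 13 were called in both treatments, all in the same direction. The members' median was 0.03 in untreated and 0.28 in treated cells, and that of all genes was 0.00 and −0.01.

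**Figure D4:**
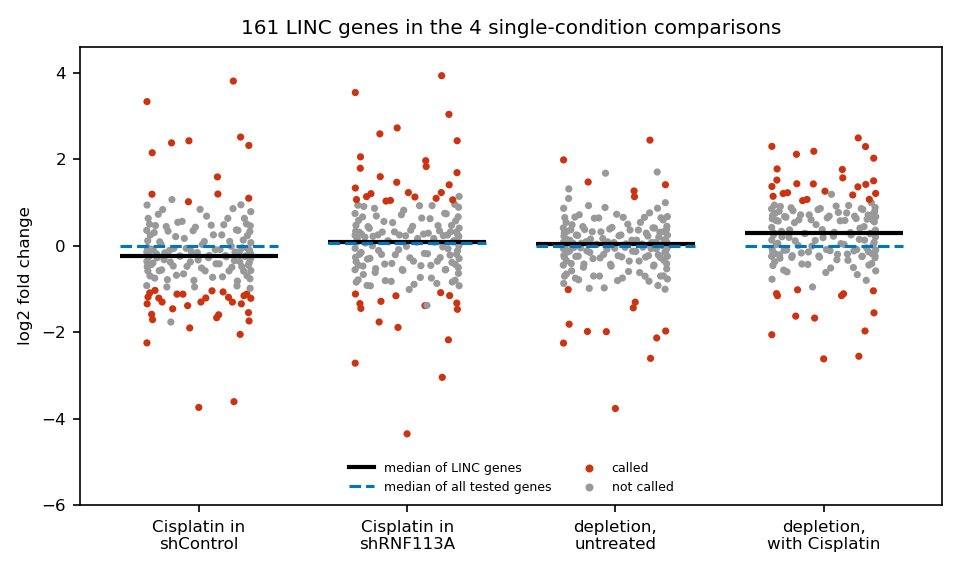
Log2 fold changes (y axis) of the 161 LINC genes in the 4 comparisons within single conditions (x axis), with called genes in red, the members' median as a black line and the median of all tested genes as a dashed blue line. The black line lies below the dashed line for Cisplatin in shControl cells, at −0.24, and above it for depletion with Cisplatin, at 0.28.

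The interaction term asks whether the Cisplatin effect differed between the backgrounds. Its median over the members was 0.27, with 116 coefficients above and 45 below 0, and over all genes it was 0.00. Low genes in general had the same sign, with a median of 0.25 for the 1408 tested genes under 0.5 CPM and 0.44 for the 25 members there, of 0.20 for the 856 genes and 0.60 for the 35 members from 0.5 to 1 CPM, and of 0.10 for the 2140 genes and 0.20 for the 59 members from 1 to 5 CPM. From 5 to 20 CPM the median was −0.01 for the 2883 genes and 0.17 for the 27 members. Above 20 CPM the medians were −0.03 and 0.02. The members' median was thus the higher one in each class. Treated shRNF113A libraries also had the most reads outside genes, as given above, and the part of that in the interaction was not tested.

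Of single members, 1 was called for the interaction, where 1.28% of all genes were called, 0.769% higher and 0.508% lower. Without the replicate 2 pair 522 of all 15459 tested genes were called, 258 higher and 264 lower. In that fit 8 members were called, all with a positive coefficient. When 1 library was left out 0 to 5 members were called, against 75 to 420 of all genes. The 1 called from all 12 libraries was LINC01089, a spliced RNA that starts 1248 bases from SETD1B on the opposite strand. It measured 4.73, 4.08 and 4.40 CPM in untreated and 3.34, 2.31 and 4.32 CPM in treated shControl cells, but 9.13, 10.8 and 9.10 CPM in untreated and 17.5, 16.2 and 22.7 CPM in treated shRNF113A cells. All shRNF113A libraries were above all shControl libraries, and treated and untreated libraries overlapped in shControl but not in shRNF113A cells. The interaction was 1.36 ± 0.28 (log2, adjusted p = 0.0232), the Cisplatin effect −0.40 ± 0.21 in shControl (adjusted p = 0.116) and 0.96 ± 0.19 in shRNF113A cells (adjusted p = 0.000993). The call was lost in 6 of the 12 fits that left out 1 library, with an adjusted p of at most 0.0718, and without the replicate 2 pair it was 1.20 ± 0.23 (adjusted p = 0.00266). SETD1B, a histone methyltransferase gene, had an interaction of 0.56 ± 0.17 (adjusted p = 0.0872).

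The splicing tables of the authors hold 5 categories of events, in which 32 members had events with enough reads. Of these events 84 were tested for Cisplatin in shControl cells, 78 for Cisplatin in shRNF113A cells, and 83 and 92 for depletion without and with Cisplatin. The same exon was called with Cisplatin in both backgrounds, where 0.0681% and 0.283% of all events were called, and no other member event was. It is a cassette exon, whose inclusion was the only called event that these tables assign to a member, under the name LINC00511. By the merged annotation that the authors deposited it lies within LINC00673, in assembled transcripts but not in the RefSeq transcript that was counted. Its inclusion level was 18.6, 18.01 and 24.2% in untreated and 62.6, 44.7 and 48.5% in treated shControl cells, a rise of 31.7 percentage points (adjusted p = 0.00500). In shRNF113A cells it was 17.2, 13.7 and 22.7% without and 68.1, 71.4 and 42.8% with Cisplatin, a rise of 42.9 points (adjusted p = 0.000952). All 6 treated libraries were above all 6 untreated ones.

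**Figure D5:**
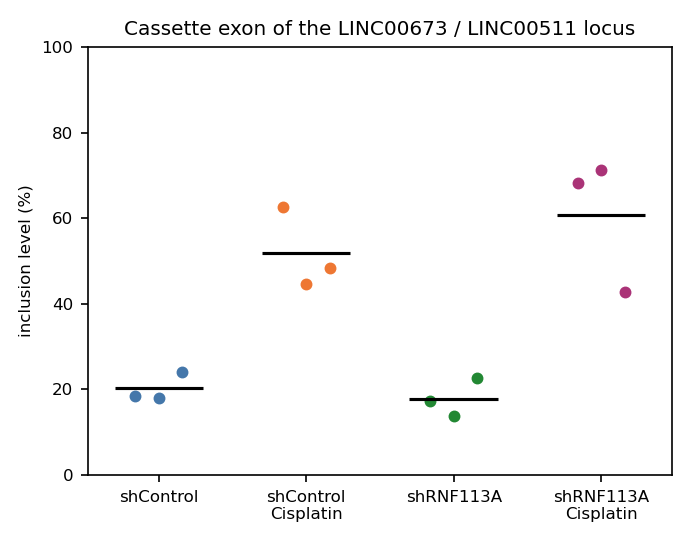
Inclusion level in percent (y axis, 0 to 100) of the cassette exon in the 4 conditions (x axis), with a point for each library and a line for the mean. Untreated libraries lie between 13.7 and 24.2% and Cisplatin-treated ones between 42.8 and 71.4%.

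Depletion did not separate the inclusion of this exon. Its differences were −2.38 points in untreated (adjusted p = 0.781) and 8.85 points in treated cells (adjusted p = 0.709). For depletion no member event was called by edgeR, where 0.0580% and 0.172% of all events were, and 6 of 83 and 5 of 92 member events had an unadjusted p under 0.05. The reads were few, with 12 to 71 skipping reads per library in shControl and 3 to 37 in shRNF113A cells. The call in shControl cells was lost in 5 of the 6 fits that left out 1 library, and that in shRNF113A cells in 1 of 6, the one without the library listed first among the treated ones.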

How the data were processed

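The authors prepared stranded mRNA libraries, removed ribosomal, transfer and mitochondrial reads, cut the rest to 73 nt and used STAR 2.5.2b for alignment to hg19. The deposited counts are the raw read pairs per gene that STAR gave the authors, without normalization, and those on the strand of the gene were used. All 12 libraries were grouped by their labels, 3 to a condition, and 0 columns of samples were left unused. CPM values were scaled with TMM factors. Genes were kept by filterByExpr and tested with the quasi-likelihood test of edgeR 4.0.16 in R 4.3.3, in a model with terms for Cisplatin and depletion and in a model with their interaction. Errors of log2 values are SE. Exonic lengths came from the RefSeq transcripts in the merged annotation that the authors deposited.

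Splicing was tested in the same package on the raw inclusion and skipping reads of the authors' rMATS tables, with a term for each library, at 10 or more reads in every library, an adjusted p under 0.05 and inclusion levels at least 0.2 apart. Those tables also hold p-values, false discovery rates and inclusion differences of the authors, which were not used, and libraries in them are unnamed. HTSeq counts and the protein-coding annotation hold no member and were not used. The tests were tested on simulated data.

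The members and lists were chosen with earlier results of these data known. Named genes were the 10 members with the most reads, up to 8 rises and 8 falls per term among called members of at least 1 CPM without overlap, members called for the interaction or in splicing, list members, and head-to-head neighbours within 2 kb. Same-numbered shControl libraries deviated together between treatments, with correlations of 0.62, 0.72 and 0.47 across 10758 genes. Those of shRNF113A had 0.40, −0.056 and 0.30. Replicates 1 and 3 of shControl deviated together across numbers too, at 0.56 and 0.51, so only replicate 2 stood out. The numbers were thus not shown to pair libraries. Alternatives were unstranded counts, library-size scaling, DESeq2 1.42.0, other filters, no fold limit, the replicate block and each library left out. Figures were drawn with matplotlib 3.10.9. Some items, among them the sequence and position of the cassette exon, are not reported here.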

Additional observations from a re-analysis of the deposited data

Results flagged for a closer look

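The effect of Cisplatin on LINC01089 differed between the backgrounds by a test of the difference itself. Its interaction was 1.36 on the log2 scale (adjusted p = 0.0232, edgeR quasi-likelihood test), with a Cisplatin effect of −0.40 in shControl and 0.96 in shRNF113A cells. Over the fits that left out 1 library it ranged from 1.11 to 1.55, and the call held in 6 of these 12.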

How the results depend on the processing

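The counts of members called for Cisplatin, depletion, their interaction, Cisplatin in shControl cells, Cisplatin in shRNF113A cells, depletion in untreated cells and depletion in treated cells are given below in this order. With at least 10 counts in every library, which left 119 members, they were 23, 12, 3, 26, 22, 9 and 23. Of all 13159 genes with such counts 2121, 824, 176, 2038, 2451, 789 and 1103 were called. With no limit on the fold change the members' counts were 92, 69, 2, 78, 77, 37 and 66. Of all 15352 genes 10260, 7289, 652, 8450, 9242, 4207 and 6586 then passed. Leaving out 1 library gave 37 to 42, 20 to 26, 0 to 5, 38 to 48, 35 to 43, 15 to 21 and 32 to 41 members, and 29 of 40, 18 of 23, 0 of 1, 29 of 43, 29 of 41, 14 of 17 and 23 of 38 calls held in all 12 such fits. These fits tested 15554 to 15625 genes. Over all genes they called 3265 to 3489, 1657 to 1835, 75 to 420, 2960 to 3187, 3229 to 3705, 1087 to 1425 and 1623 to 2080. With the replicate block the members' counts were 41, 24, 2, 45, 43, 20 and 37, and 44 members were called for Cisplatin in the 6 shControl libraries alone with that block. Of all 15352 genes 3332, 1707, 217, 3087, 3617, 1382 and 1980 were called with it. In the 6 shControl libraries alone 2949 of 14719 were.

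The interaction was the least stable, with 2 calls from unstranded counts, 2 with library size scaling and 5 with DESeq2. Over all genes these gave 214 of 15737, 180 of 15352 and 287 of 15352 calls for the interaction. Without shControl replicate 2 of either treatment, an alternative chosen after seeing the data, 8 members were called for it, all with a positive coefficient, and the other counts were 41, 24, 42, 44, 20 and 41. Of all 15459 genes tested there 522 were called for it, 258 higher and 264 lower. The other counts over all genes were 3486, 1822, 3172, 3762, 1555 and 2141. The cause was not tested. Under library size scaling LINC01515 (−0.94) and LINC01137 (−0.91) fell below 2-fold. Of the values of single named members under all alternatives, 434 kept their direction and call, 20 lost the call and none changed sign. Splicing calls for Cisplatin numbered 0 to 1 in shControl and 0 to 2 in shRNF113A cells when 1 library was left out, and stayed at 0 for depletion. No paired analysis of splicing was possible because the libraries in those tables carry no number.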

Other observations

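The members given next had a mean under 1 CPM and were chosen after their values were seen. LINC00488 measured 1.66, 2.497 and 1.19 CPM in untreated and 0.4998, 0.674 and 0.915 CPM in treated shControl cells. In the 6 shRNF113A libraries it stayed between 0.0307 and 0.184 CPM, below all shControl libraries, with a depletion term of −3.29 ± 0.38 (log2, edgeR adjusted p = 2.05e-05). No shRNF113A library reached the filter's level of 0.258 CPM. LINC00488 thus entered the test through shControl libraries, where it was high, so its adjusted p adds no support for the fall. LINC00887 had a depletion term of −2.17 ± 0.23 and LINC01447 of −1.98 ± 0.23. LINC01006 had a Cisplatin term of −3.39 ± 0.40 on 243 reads over the 12 libraries. Low genes were called often in general. For depletion 33.4% of the 1408 tested genes under 0.5 CPM and 29.3% of the 856 from 0.5 to 1 CPM were called, against 2.55% of those above 20 CPM, and for Cisplatin 37.9% of the genes from 0.5 to 1 CPM were.

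Most members were read from their own strand. The median member had 0.405% of its reads on the opposite strand, and 2 members had more there than on their own, LINC00936 with 56.3% and LINC01271 with 92.9%. LINC01271 overlaps LINC01270 on the other strand. The opposite-strand share of the libraries, applied to the 2916 opposite-strand reads within LINC01271, equals at most 26.6% of its 222 own reads.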
